A study of Homo sapiens with 54 samples.

Results

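The account concerns HCT-116 in its sensitive form under uracil: 3 of the 54 libraries of the series, set against the mean of 3 libraries of sensitive DLD-1 and 3 libraries of sensitive HT-29. The members were chosen by their labels alone (line, sensitive form, uracil), and the 9 libraries entered 1 fit with each line as a group. All 3 are human colorectal cancer lines, and all 9 cultures had been given uracil at 10 µM for 24 h, a baseline with neither 5-FU (5-fluorouracil) nor radiation. The study's description of the lines gives mutated PIK3CA in all 3 and mutated BRAF in HT-29. It gives HCT-116 and DLD-1 unstable microsatellites and HT-29 stable ones. Each line stands for a single tumour, so a mutation, any other inherited property of a line and its culture history cannot be told apart in these comparisons. Gene expression was measured by RNA-seq of polyadenylated RNA, as estimated counts for the tests and as TPM (a share of all transcripts, which corrects for transcript length and depth) for the levels.

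The lining of the colon is an epithelium whose stem cells, kept in that state by WNT signals, give rise to absorptive enterocytes and to secretory goblet cells. Transcription factors such as CDX2 and HNF4A switch on the genes of these mature cells, and colorectal cancer lines keep this program to different degrees. Where it is weak, genes of motile, mesenchymal cells are often found instead. Cells answer DNA damage by inducing genes of cell cycle arrest, repair and death, and many of these are held at a basal level even in unstressed cells.

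The 9 libraries held between 39728206 and 218518344 estimated counts, the highest being DLD-1 replicate 2 and the next 66422546. Library to library, replicates of a line lay 0.149 to 0.240 apart, as the root mean square difference in log2 counts, scaled to the library total, over genes. The lines were farther from each other: 1.22 between DLD-1 and HT-29, 1.30 between DLD-1 and HCT-116 and 1.51 between HCT-116 and HT-29, as means over 9 pairs each. One library stood apart in a small way. For 13 genes that averaged 100 TPM or more in HT-29 and stayed under 1 TPM in both other DLD-1 libraries, there was a median of 0.951 TPM in DLD-1 replicate 1, or 0.436% of their HT-29 level. By the same rule the figure was 0.0559% and 0.0685% in the other DLD-1 libraries and 0.0308% to 0.0369% in HCT-116. The part of this signal in the results was not tested, but the results were recomputed without that library.

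The label of a colorectal epithelial line was checked against markers. EPCAM, the epithelial cell adhesion molecule, was at 292 to 316 TPM in HCT-116, and the keratins KRT8, KRT18 and KRT19 at 998 to 1071, 634 to 699 and 792 to 879 TPM. Of the colorectal markers, CDX2 was present, at 9.41 to 11.2 TPM, whereas VIL1, CDH17, LGALS4 and GPA33 lay at 0.273 TPM or less in each HCT-116 library. GPA33 did not exceed 0.280 TPM in the other lines. Of 10 fibroblast markers, COL1A1 (19.5 to 24.2 TPM) and ACTA2 (8.18 to 9.02 TPM) were clearly present in HCT-116, while COL1A2, COL3A1, DCN, THY1 and FAP did not exceed 0.212 TPM. Of 10 immune markers, CD68 (8.07 to 9.02 TPM) was the highest, and the defining PTPRC, CD3E and CD3D did not exceed 0.0419 TPM. Of 10 endothelial markers, ESAM was the highest, at 9.74 to 10.5 TPM, and CDH5 and KDR did not exceed 0.1996 TPM. Summed over its 10 members, the fibroblast list reached 29.6 to 33.2 TPM in HCT-116, 4.25 to 5.25 in DLD-1 and 1.67 to 2.55 in HT-29, and the endothelial list 12.4 to 13.3, 6.90 to 7.20 and 30.9 to 32.6. In bulk RNA, fewer cells of a kind and less RNA per cell cannot be told apart.

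HCT-116 differed from the mean of the other lines in 33.1% of the genes tested. A gene was called at an adjusted p of at most 0.01 and a change of at least 1 on the log2 scale (2-fold), with edgeR's quasi-likelihood test and Benjamini-Hochberg adjustment over 22029 genes. By that rule 4374 genes (19.9%) were higher in HCT-116 than the mean of the others and 2916 (13.2%) lower. Against DLD-1 alone the counts were 3921 higher (17.8%) and 3079 lower, 31.8% in all, and against HT-29 alone 4971 higher (22.6%) and 3830 lower (17.4%). For scale, DLD-1 and HT-29 differed from each other in 7323 genes (33.2%).

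A distance from a mean may come from 1 of its lines, so a gene was taken as apart from both lines where it was called in the same direction against the mean, against DLD-1 and against HT-29. These 3 contrasts share the HCT-116 libraries. By this rule 2731 genes (12.4%) were higher in HCT-116 than in both other lines, and 1565 (7.10%) were lower, 19.5% in all. The plot of the change against DLD-1 and against HT-29 shows these as 2 opposite corners. Below, "called" means apart from both lines, and an adjusted p is the largest of the 3 contrasts. The ± beside a log2 fold change is the size of that change divided by the square root of the test's F statistic. With 3 libraries a line, this ± approximates a standard error. Where a group has almost no counts, it is not a reliable standard error. Without DLD-1 replicate 1 the counts were 2808 and 1510, of which 2643 and 1472 were genes called with it.

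**Figure D1:**
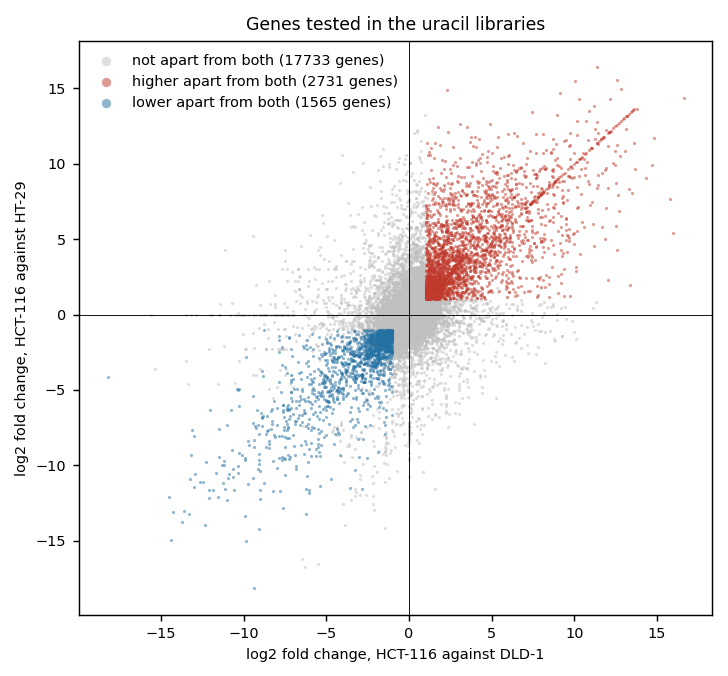
Each point is 1 of 22029 genes, with the log2 fold change of HCT-116 against DLD-1 on the horizontal axis and against HT-29 on the vertical axis. Red points are the 2731 genes higher in HCT-116 than in both lines, blue points the 1565 lower ones and grey points the other 17733.

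The genes with the largest fitted excess in HCT-116 were at or near 0 in the other lines. Among 716 protein-coding genes called higher with at least 10 TPM in HCT-116, 21 were at the floor in both others, meaning 3 counts or fewer in every library, and the median change against the nearer line was 2.06 on the log2 scale. The 14 leading genes by that change were MAGEB2, CHST15, TNFRSF6B, OR51B4, PRRX2, CSAG3, BEX2, TMSB15A, HS6ST2, STC2, RTL8C, COL6A2, HBE1 and HBG2. The fitted change of a gene at the floor depends on a count added before the logarithm, so silence elsewhere puts a gene near the top and the order among these is not a measured one. SPARC, described below and measurable in DLD-1, fell just outside, at 11.40 on this scale against 11.48 for HBG2. Of the 14, 6 lie on the X chromosome (MAGEB2, CSAG3, BEX2, TMSB15A, HS6ST2 and RTL8C), where 12.7% of the 545 genes tested were called higher, a share like that of all genes placed on a chromosome (2253 of 17274). A further 3 lie in the β-globin region of chromosome 11 (OR51B4, HBE1 and HBG2).

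MAGEB2, a cancer-testis antigen whose normal expression is in the germline (chrX:30215563-30220089, plus strand, GRCh38), was at 184, 172 and 189 TPM in HCT-116, 0 TPM in every library of DLD-1 and 0, 0.0183 and 0 TPM in HT-29. The HCT-116 level was at least 4434-fold that of DLD-1 and at least 2834-fold that of HT-29, each against a floor of 3 counts per library. A fold against a group at that floor is a lower bound and covers counting error only. CSAG3, another cancer-testis gene, was at 33.3, 37.1 and 35.9 TPM in HCT-116 and at 0.0000164 TPM or less in the other lines. It has near-identical copies, so the share of reads it was given is an estimate. TNFRSF6B encodes a soluble decoy receptor for Fas ligand and was at 26.9, 21.3 and 22.7 TPM in HCT-116, 0 TPM in every library of DLD-1 and 0 TPM in every library of HT-29. PRRX2, a homeobox gene of embryonic mesenchyme, was at 19.1, 18.02 and 15.8 TPM in HCT-116, 0 TPM in every library of DLD-1 and 0 TPM in every library of HT-29. In all 4 genes the HCT-116 libraries lay together and every other library was at or near 0, which the choice by fold favours.

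Of the leading genes, CHST15, HS6ST2 and COL6A2 make or modify the extracellular matrix, whose genes as a list went both ways, as described below. CHST15, a sulfotransferase of chondroitin sulfate, was at 34.3, 38.1 and 32.7 TPM in HCT-116 and at 0.00966 TPM or less elsewhere, at least 2738-fold higher than in DLD-1. HS6ST2, which sulfates heparan sulfate, was at 21.3, 20.4 and 20.4 TPM in HCT-116 and at 0.0127 TPM or less elsewhere. COL6A2, a chain of collagen VI, was at 50.9, 50.6 and 48.6 TPM in HCT-116, 0, 0.0591 and 0.133 TPM in DLD-1 and 0.0287, 0.03402 and 0.0938 TPM in HT-29. Leading genes were chosen by their fold in these same libraries, so the gap between HCT-116 and the 6 other libraries is part of the choice. The remaining leaders were of other kinds. The secreted glycoprotein gene STC2 was at 34.9 to 39.1 TPM, the actin-binding TMSB15A at 50.7 to 54.8, BEX2 at 30.6 to 33.2 and the retrotransposon-derived RTL8C at 38.4 to 41.9 TPM in HCT-116. None of these 4 exceeded 0.0206 TPM in DLD-1 or HT-29.

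Reads were assigned to globin genes of the embryo and fetus in HCT-116. HBE1, the embryonic ε-globin gene, was at 98.8, 84.4 and 96.7 TPM in HCT-116, 0 TPM in every library of DLD-1 and 0, 0 and 0.151 TPM in HT-29. HBG2, a fetal γ-globin gene with a near-identical neighbour, was at 13.4, 12.8 and 14.6 TPM in HCT-116 and at 0 TPM in the 6 other libraries. OR51B4, an olfactory receptor gene beside them, was at 42.8, 41.1 and 40.2 TPM in HCT-116 and at 0 TPM elsewhere. In the annotation HBE1 and HBG2 have long transcripts that overlap the neighbouring olfactory receptor genes, so reads shared between these genes were divided by estimate.

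**Figure D2:**
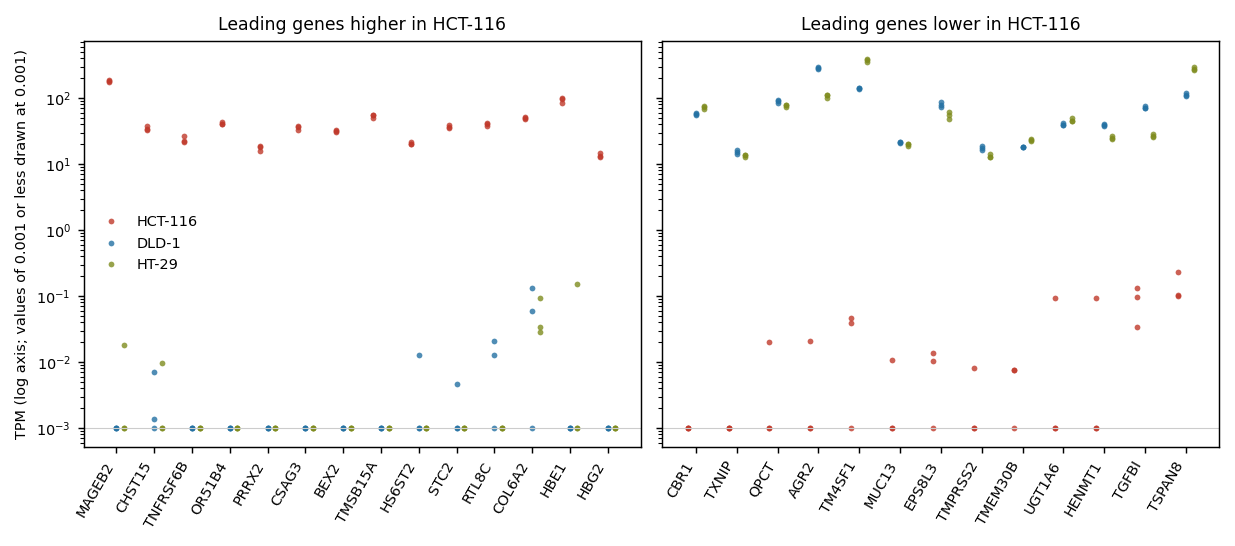
TPM on a log axis, with values of 0.001 or less drawn at 0.001, for 14 leading higher and 13 leading lower genes and 3 libraries a line. On the left HCT-116 sits at 12.8 TPM or more while the other lines reach 0.151 TPM at most, and on the right HCT-116 reaches 0.235 TPM at most while both other lines sit at 12.8 TPM or more.

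The genes with the largest fitted deficit in HCT-116 were at or near 0 there and well expressed in both other lines. The pool held 415 protein-coding genes called lower with at least 10 TPM in each other line, of which 13 were at the floor in HCT-116, and its median change against the nearer line was -1.53. CBR1, a carbonyl reductase that reduces aldehydes and ketones, was at 0 TPM in every library of HCT-116, 59.6, 55.5 and 57.3 TPM in DLD-1 and 75.4, 72.7 and 67.2 TPM in HT-29. That is at least 666-fold lower than in DLD-1 and at least 945-fold lower than in HT-29. TXNIP, which binds thioredoxin and limits glucose uptake, was at 0 TPM in every library of HCT-116, 15.4, 14.2 and 16.4 TPM in DLD-1 and 13.8, 13.5 and 12.9 TPM in HT-29. No read was assigned to either gene in any HCT-116 library, whereas the other 2 lines had similar levels of TXNIP.

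QPCT, a glutaminyl cyclase, was at 0, 0.01996 and 0 TPM in HCT-116, 93.5, 85.4 and 88.8 TPM in DLD-1 and 78.99, 77.8 and 72.6 TPM in HT-29. TM4SF1, a tetraspanin-like membrane protein, was at 0.0469, 0 and 0.0385 TPM in HCT-116, 140.2, 137 and 140.5 TPM in DLD-1 and 382, 388 and 354 TPM in HT-29. TMPRSS2, a membrane serine protease, was at 0.00813, 0 and 0 TPM in HCT-116, against 16.5 to 18.7 TPM in DLD-1 and 12.8 to 14.1 TPM in HT-29. The groups did not overlap in any of these, which follows from the choice by fold. The other leaders included AGR2, MUC13, TSPAN8 and TGFBI, described below, and EPS8L3, TMEM30B, UGT1A6 and HENMT1, which lay at 0 to 0.0951 TPM in HCT-116 and at 18.1 to 86.1 TPM in the other lines. UGT1A6 shares its last exons with the other UGT1A genes, so its level is an estimate.

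The gene lists moved to different degrees. The plot of shares by list sets each against the 12.4% of all genes called higher and the 7.10% called lower, where the median change against the mean over all genes was -0.00079. Among the 15 lists drawn, the lower share was largest for the intestinal epithelial genes, at 64.7%, and for the HOX genes, at 41.7%. The higher share was largest for the list of MAPK feedback and EGFR ligand genes, at 32.1%.

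**Figure D3:**
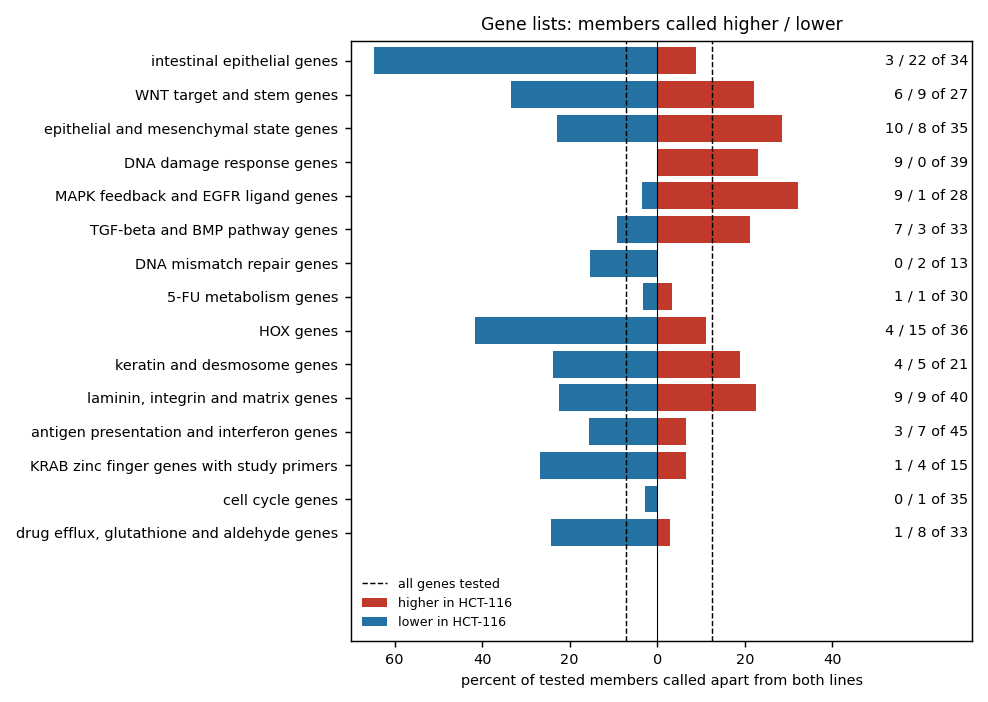
Percent of the tested members of each list called higher (red, to the right) or lower (blue, to the left) than in both other lines, with the counts at the right margin. Dashed lines mark the shares over all genes tested, 12.4% higher and 7.10% lower.

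Genes of the differentiated intestine were low in HCT-116. Of 34 tested members, 22 were called lower and 3 higher, with a median change of -3.71 against the mean. The largest part came from goblet and secretory genes, of which 8 of 9 were lower, and from surface and adhesion genes, of which 8 of 10 were lower. Among the transcription factors 5 of 11 were lower. Of 12 enterocyte genes, 8 did not pass the filter on low counts in these lines, and of the 4 tested 1 was lower and 2 higher.

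AGR2, a protein disulfide isomerase needed for mucin folding, was at 0.0212, 0 and 0 TPM in HCT-116, 287, 278 and 292 TPM in DLD-1 and 112, 110.3 and 100.2 TPM in HT-29. It was at least 2854-fold lower than in DLD-1 and at least 1262-fold lower than in HT-29. The trefoil peptides TFF1 and TFF3, secreted with mucus, were at 0 TPM in HCT-116, against 11.2 to 12.8 and 7.63 to 8.15 TPM in DLD-1 and 1.701 to 4.38 and 1.55 to 2.13 TPM in HT-29. The gel-forming mucin MUC5AC was at 0, 0.00124 and 0 TPM in HCT-116, 4.21, 6.61 and 5.04 TPM in DLD-1 and 0.736, 0.775 and 1.33 TPM in HT-29. FCGBP, a mucus protein, was the exception in this group, at 1.04, 1.12 and 0.7704 TPM in HCT-116, 0.0761, 0.0573 and 0.0731 TPM in DLD-1 and 0.507, 0.356 and 0.501 TPM in HT-29 (log2 fold change 2.52 ± 0.14 against the mean, 3.80 against DLD-1 and 1.23 against HT-29, largest adjusted p = 7.35e-07).

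Of the surface genes, MUC13, a transmembrane mucin, was at 0, 0 and 0.0108 TPM in HCT-116, 21.4, 20.8 and 21.7 TPM in DLD-1 and 19.8, 20.1 and 18.9 TPM in HT-29. TSPAN8, a tetraspanin of intestinal cells, was at 0.235, 0.101 and 0.103 TPM in HCT-116, 120.1, 108 and 109 TPM in DLD-1 and 291, 278 and 265 TPM in HT-29 (log2 fold change -10.49 ± 0.14 against the mean, -9.77 against DLD-1 and -11.21 against HT-29, largest adjusted p = 2.81e-20). Villin (VIL1), the actin bundler of the brush border, was at 0.0922, 0.0529 and 0.0135 TPM in HCT-116, 8.06, 8.66 and 8.05 TPM in DLD-1 and 39.4, 41.6 and 43.6 TPM in HT-29 (log2 fold change -9.10 ± 0.13 against the mean, -8.01 against DLD-1 and -10.20 against HT-29, largest adjusted p = 6.81e-19). These were nearly absent from HCT-116 and well expressed in both other lines. For the intestinal cadherin CDH17 and for LGALS4 the picture was uneven. CDH17 was at 0.145, 0.225 and 0.273 TPM in HCT-116, 59.5, 58.3 and 59.4 TPM in DLD-1 and 0.472, 0.399 and 0.695 TPM in HT-29, so that most of its distance came from DLD-1. LGALS4 was at 0.139, 0.247 and 0.156 TPM in HCT-116, 4.25, 1.49 and 1.19 TPM in DLD-1 and 405, 419 and 398 TPM in HT-29, so that most came from HT-29. LGALS4 was highest in replicate 1 among the DLD-1 libraries, and its change against DLD-1 was -3.56 with that library and -3.01 without it. EPCAM was called lower by a modest amount, -1.31 ± 0.06, while its level was among the higher ones in each line, at 609 TPM or more in the others.

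KRT20, the keratin of differentiated enterocytes and goblet cells, was at 1.71, 1.31 and 1.56 TPM in HCT-116, 51.97, 50.98 and 53.9 TPM in DLD-1 and 159, 172 and 153 TPM in HT-29 (log2 fold change -6.07 ± 0.09 against the mean, -5.19 against DLD-1 and -6.96 against HT-29, largest adjusted p = 2.59e-19). The enterocyte genes CA2, a carbonic anhydrase, and CDHR2, a brush border cadherin, went the other way. CA2 was at 60.7, 58.7 and 58.2 TPM in HCT-116, 28.4, 26.5 and 25.9 TPM in DLD-1 and 0.782, 0.373 and 0.756 TPM in HT-29. CDHR2 was at 3.79, 3.51 and 3.68 TPM in HCT-116, 0.387, 1.13 and 1.12 TPM in DLD-1 and 0.223, 0.107 and 0.138 TPM in HT-29. Both were called higher in HCT-116.

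The transcription factors were divided. CDX1, a homeobox factor of the intestine, was at 0 TPM in every library of HCT-116, 0.0551, 0.311 and 0.196 TPM in DLD-1 and 0.243, 0.152 and 0.156 TPM in HT-29. HNF4A, a nuclear receptor that drives enterocyte genes, was at 0.2698, 0.197 and 0.221 TPM in HCT-116, 18.2, 18.4 and 17.4 TPM in DLD-1 and 17.6, 17.3 and 17.3 TPM in HT-29 (log2 fold change -6.42 ± 0.08 against the mean, -6.32 against DLD-1 and -6.53 against HT-29, largest adjusted p = 8.77e-21). KLF5 and GATA6 were reduced but present, at 23.7 to 28.2 and 5.61 to 6.79 TPM, with changes of -2.81 ± 0.06 and -1.83 ± 0.06. CDX2, the homeobox factor of intestinal identity, was at 9.41, 11.2 and 11.1 TPM in HCT-116, 122, 115 and 123 TPM in DLD-1 and 0.181, 0.106 and 0.294 TPM in HT-29. HCT-116 was thus below DLD-1 and above HT-29 in CDX2.

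For 4 of the genes called lower, the 250 bases before the annotated start are shown, chosen because each holds a match to 1 of the motifs given here. Promoters without a match, that of HNF4A among them, are not shown. The sequences are from RefSeq on GRCh38.p14, minus strand, written 5′ to 3′, and capitals mark the letters of a motif on either strand: TTTATG or CATAAA (a site of the CDX factors) and CAAAGTC or GACTTTG (the core of an HNF4 site). The positions are chr3:124934752-124935001 for MUC13, chr17:40885243-40885492 for KRT20, chr7:16805000-16805249 for AGR2 and chr12:71158000-71158249 for TSPAN8.
MUC13: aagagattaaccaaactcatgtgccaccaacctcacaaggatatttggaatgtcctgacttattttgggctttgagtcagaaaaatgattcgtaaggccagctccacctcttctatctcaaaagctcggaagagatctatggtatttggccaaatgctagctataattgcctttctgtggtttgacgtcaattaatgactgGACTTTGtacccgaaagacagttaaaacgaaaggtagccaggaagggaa
KRT20: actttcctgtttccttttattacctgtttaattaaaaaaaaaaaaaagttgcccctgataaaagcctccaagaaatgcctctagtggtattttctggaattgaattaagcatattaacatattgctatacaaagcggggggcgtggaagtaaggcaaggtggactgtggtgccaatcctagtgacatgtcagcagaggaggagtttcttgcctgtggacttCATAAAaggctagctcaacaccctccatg
AGR2: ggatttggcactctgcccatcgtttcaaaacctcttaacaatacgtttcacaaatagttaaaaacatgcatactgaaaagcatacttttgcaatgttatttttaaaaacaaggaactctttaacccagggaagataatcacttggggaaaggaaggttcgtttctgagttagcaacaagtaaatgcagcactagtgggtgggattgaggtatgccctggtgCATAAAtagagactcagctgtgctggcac
TSPAN8: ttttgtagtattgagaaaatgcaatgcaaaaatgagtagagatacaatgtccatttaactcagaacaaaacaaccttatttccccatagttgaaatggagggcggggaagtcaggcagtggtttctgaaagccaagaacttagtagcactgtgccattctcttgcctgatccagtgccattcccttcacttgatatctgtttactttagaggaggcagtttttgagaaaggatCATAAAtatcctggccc
Of the 22 intestinal genes called lower, 14 had a promoter in the RefSeq table. TTTATG was found in 5 of these 14 (35.7%), against 5.45% of the 11760 promoters of protein-coding genes tested. CAAAGTC was in 1 (7.14%, against 2.13%). The 14 promoters held a median of 5 CG dinucleotides, against 20 over the 11760, so they also differed in base composition, with a median GC content of 50.8% against 64.4%. The CATAAA match 29 bases before the start in KRT20 and AGR2 lies where a TATA box is usually found. These motifs were chosen after the values were seen, and a match is a description of letters, not of binding.

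Targets of the WNT pathway were split. When WNT acts, β-catenin joins TCF and LEF factors in the nucleus and switches on, among others, its own feedback inhibitors and the genes of crypt stem cells. Of 27 members tested, 9 were called lower and 6 higher, with a median of -0.57. AXIN2, the standard feedback target, was at 9.699, 10.98 and 8.94 TPM in HCT-116, 280.5, 294 and 292 TPM in DLD-1 and 42.95, 41.5 and 41.8 TPM in HT-29 (log2 fold change -3.52 ± 0.05 against the mean, -4.84 against DLD-1 and -2.21 against HT-29, largest adjusted p = 1.60e-17). RNF43 and ZNRF3, ligases that remove WNT receptors, changed by -2.67 ± 0.05 and -1.51 ± 0.05. The stem cell genes LGR5, a receptor for R-spondins, and ASCL2, a transcription factor, were nearly absent. LGR5 was at 0.0522, 0.0564 and 0.0463 TPM in HCT-116, 22.2, 22.4 and 21.1 TPM in DLD-1 and 7.07, 6.89 and 7.78 TPM in HT-29. ASCL2 was at 0, 0.0124 and 0.0255 TPM in HCT-116, 114, 112 and 113 TPM in DLD-1 and 3.52, 3.297 and 3.16 TPM in HT-29. MYB, SP5, TDGF1 and PROX1 were the other members called lower.

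The members that were higher included secreted inhibitors. DKK1, which blocks the WNT co-receptor, was at 762, 715 and 770.4 TPM in HCT-116, 0, 0.00925 and 0 TPM in DLD-1 and 15.9, 17.98 and 13.4 TPM in HT-29, at least 12650-fold higher than in DLD-1. NOTUM, an enzyme that inactivates WNT ligands, was at 11.9, 13.2 and 12.8 TPM in HCT-116, 1.96, 2.09 and 1.99 TPM in DLD-1 and 0.326, 0.106 and 0.249 TPM in HT-29 (log2 fold change 4.44 ± 0.09 against the mean, 2.80 against DLD-1 and 6.08 against HT-29, largest adjusted p = 2.63e-15). TCF7L1, a TCF factor that mostly represses, changed by 4.64 ± 0.10, and TCF7L2 by 1.25 ± 0.04. CD44, an adhesion receptor for hyaluronan, was at 466, 449 and 461 TPM in HCT-116, 43.1, 46.97 and 48.2 TPM in DLD-1 and 113, 111 and 112 TPM in HT-29, and the WNT co-receptor PTK7 changed by 2.58 ± 0.04. LEF1 was at 0 TPM in every library of HCT-116, 56.01, 57.3 and 56.2 TPM in DLD-1 and 0.0698, 0 and 0.0951 TPM in HT-29, and did not pass against HT-29. MYC was at 264, 255 and 261 TPM in HCT-116, 101, 98.6 and 99.01 TPM in DLD-1 and 133, 132 and 122 TPM in HT-29, higher in HCT-116 against the mean by 1.16 ± 0.05 but short of the threshold against HT-29 (0.89), so it was not called.

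Part of the epithelial genes were lower in HCT-116 and most of the tested mesenchymal genes higher. Of 17 epithelial genes 7 were called lower and 10 were not called, with a median of -0.98, and of 18 mesenchymal genes 10 were called higher and 1 lower, with a median of 3.40. E-cadherin (CDH1) was at 26.9, 26.2 and 26.2 TPM in HCT-116, 225, 231 and 235 TPM in DLD-1 and 118, 121 and 119.9 TPM in HT-29 (log2 fold change -2.81 ± 0.05 against the mean, -3.23 against DLD-1 and -2.39 against HT-29, largest adjusted p = 9.52e-18). The epithelial regulators OVOL2 and GRHL2 changed by -3.38 ± 0.11 and -2.01 ± 0.05, the serine proteases ST14 and PRSS8 by -1.73 ± 0.05 and -1.19 ± 0.05, and the receptor ERBB3 by -1.71 ± 0.05. ESRP2, a splicing regulator of epithelial cells, was the other one called, with a change against HT-29 (-1.03) so near the threshold that the call was lost without DLD-1 replicate 1. Its relative ESRP1 and the claudins CLDN3, CLDN4 and CLDN7 were not called.

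The largest mesenchymal change was that of SPARC, a secreted protein that binds collagen. It was at 2296, 2162 and 2262 TPM in HCT-116, 0.928, 0.862 and 0.969 TPM in DLD-1 and 0.0292, 0 and 0.0463 TPM in HT-29 (log2 fold change 13.92 ± 0.09 against the mean, 11.40 against DLD-1 and 16.43 against HT-29, largest adjusted p = 3.81e-22). TWIST1, a factor of mesenchymal cells, was at 5.74, 6.14 and 4.99 TPM in HCT-116, 0 TPM in every library of DLD-1 and 0.0137, 0 and 0 TPM in HT-29. ZEB1, a repressor of E-cadherin, was at 2.54, 3.17 and 2.85 TPM in HCT-116, 0.4896, 0.389 and 0.166 TPM in DLD-1 and 0.332, 0.467 and 0.323 TPM in HT-29 (log2 fold change 3.65 ± 0.14 against the mean, 3.80 against DLD-1 and 3.49 against HT-29, largest adjusted p = 1.71e-12). SNAI1 and SNAI2, of the same kind, changed by 2.23 ± 0.08 and 4.44 ± 0.48, with SNAI2 at 0.532 TPM or less in HCT-116. Vimentin (VIM), the intermediate filament of mesenchymal cells, was at 5.61, 5.62 and 5.97 TPM in HCT-116, 0.2597, 0.239 and 0.531 TPM in DLD-1 and 0.118, 0.07199 and 0.227 TPM in HT-29, a low level in all lines. AXL, a receptor tyrosine kinase, changed by 4.66 ± 0.05, CAV1 by 4.02 ± 0.05 and the fibronectin receptor subunit ITGA5 by 5.99 ± 0.11. N-cadherin (CDH2) did not exceed 0.00875 TPM in HCT-116, and ZEB2, FN1 and CAVIN1 were not called. The fibroblast markers that were higher beside these genes are given above, with COL1A2, COL3A1 and DCN near 0. TGFBI, a matrix protein induced by TGF-β, went against the list, at 0.133, 0.0344 and 0.0954 TPM in HCT-116, 70.2, 71.1 and 76.6 TPM in DLD-1 and 26.5, 29.01 and 25.6 TPM in HT-29 (log2 fold change -10.58 ± 0.14 against the mean, -11.19 against DLD-1 and -9.96 against HT-29, largest adjusted p = 3.63e-20).

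Matrix and adhesion genes differed in both directions. Of 40 tested, 9 were higher and 9 lower. Among laminin chains, the epithelial LAMA3 and LAMB3 changed by -2.48 ± 0.06 and -2.87 ± 0.06 and the mesenchymal LAMA4 by 5.51 ± 0.19. Among collagens, COL4A5 was at 8.73, 8.61 and 8.54 TPM in HCT-116, 0 TPM in every library of DLD-1 and 0, 0.00368 and 0 TPM in HT-29. COL12A1 changed by 10.52 ± 0.14, whereas COL4A2 and COL17A1, a collagen of hemidesmosomes, changed by -5.34 ± 0.14 and -4.40 ± 0.08. Among integrins, ITGB6, which pairs with αV to activate TGF-β, was at 0.0798, 0.153 and 0.150 TPM in HCT-116, 4.45, 4.201 and 4.65 TPM in DLD-1 and 12.7, 13.3 and 11.9 TPM in HT-29, and ITGA1 changed by -2.53 ± 0.09, while ITGA3 and ITGB3 were higher. The urokinase gene PLAU was at 47.2, 47.5 and 48.7 TPM in HCT-116, 3.45, 3.65 and 4.39 TPM in DLD-1 and 0.6601, 0.513 and 0.598 TPM in HT-29 (log2 fold change 4.76 ± 0.07 against the mean, 3.50 against DLD-1 and 6.02 against HT-29, largest adjusted p = 3.92e-18). MMP14, a membrane protease, was called by a narrow margin, and its change against DLD-1 fell to 0.99 without DLD-1 replicate 1, which ended the call. Tenascin C (TNC) changed by -7.66 ± 0.19 and agrin (AGRN) by -2.67 ± 0.06.

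A set of genes induced in the DNA damage response was higher in HCT-116, in cultures not given 5-FU or radiation. Of 39 tested, 9 were called higher, or 23.1% against 12.4% over all genes, with a median change of 0.71. CDKN1A, which encodes the cell cycle inhibitor p21, was at 229, 216 and 215 TPM in HCT-116, 8.06, 7.25 and 8.02 TPM in DLD-1 and 1.51, 1.94 and 2.199 TPM in HT-29 (log2 fold change 5.92 ± 0.06 against the mean, 4.99 against DLD-1 and 6.86 against HT-29, largest adjusted p = 2.42e-20). Each HCT-116 library was far above all 6 others.

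The feedback genes MDM2, a ubiquitin ligase, and PPM1D, a phosphatase that dampens the damage response, were both called. MDM2 was at 72.6, 87.5 and 80.7 TPM in HCT-116, 29.5, 33.8 and 36.8 TPM in DLD-1 and 24.2, 26.8 and 29.1 TPM in HT-29 (log2 fold change 1.35 ± 0.04 against the mean, 1.30 against DLD-1 and 1.41 against HT-29, largest adjusted p = 3.63e-15), and PPM1D changed by 1.43 ± 0.05. Of the repair and metabolism genes, DDB2, which recognises ultraviolet damage, changed by 1.55 ± 0.04, the ribonucleotide reductase subunit RRM2B by 1.61 ± 0.05, ferredoxin reductase (FDXR) by 2.26 ± 0.05 and the secreted factor GDF15 by 2.10 ± 0.05. PLK3 changed by 2.06 ± 0.05. The death genes were less set apart: 1 of 15 was called. BAX, the pore former of mitochondria, was at 112, 110.3 and 96.9 TPM in HCT-116, 117, 117 and 121 TPM in DLD-1 and 271, 282 and 251 TPM in HT-29, below HT-29. PERP, a junction protein, was at 58.5 to 63.03 TPM in HCT-116, 1262 to 1350.0 in DLD-1 and 56.2 to 62.98 in HT-29. The damage-inducible genes BTG2, RPS27L and ZMAT3 were higher than in each line but short of the 2-fold threshold against 1 of them.

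**Figure D4:**
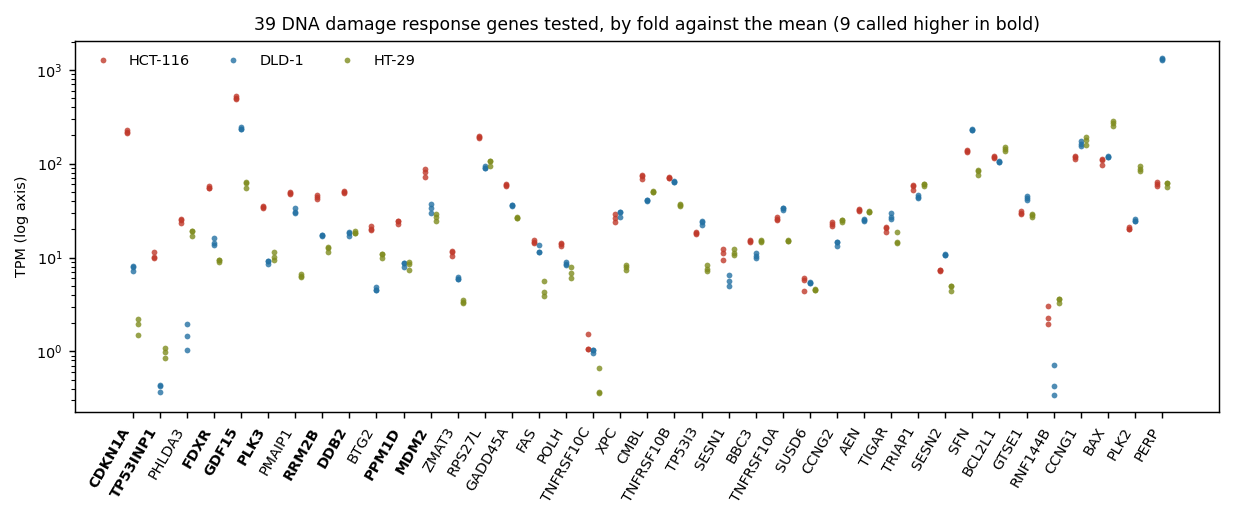
TPM on a log axis for the 39 tested DNA damage response genes, ordered by their change against the mean of the other lines, with 3 libraries a line. The 9 genes in bold were called higher in HCT-116, from CDKN1A at 215 to 229 TPM against 8.06 TPM or less, to genes such as MDM2 at 72.6 to 87.5 TPM against 36.8 TPM or less.

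Most of the tested nuclear factors of the MAPK pathway and some of its feedback genes were higher in HCT-116. This pathway runs from growth factor receptors through a cascade of kinases that ends in ERK, and ERK induces both transcription factors and its own brakes. Of 28 tested, 9 were called higher and 1 lower, with a median of 0.85. By kind, 5 of 7 nuclear factors and 4 of 11 feedback genes were called higher, and no receptor or ligand was. SPRY4, a brake on the pathway, was at 67.8, 67.4 and 66.2 TPM in HCT-116, 6.84, 7.17 and 7.06 TPM in DLD-1 and 15.6, 15.3 and 16.02 TPM in HT-29 (log2 fold change 2.73 ± 0.04 against the mean, 3.41 against DLD-1 and 2.04 against HT-29, largest adjusted p = 7.43e-18). The ERK phosphatase DUSP5 was at 79.9, 66.6 and 73.9 TPM in HCT-116, 27.9, 28.1 and 30.9 TPM in DLD-1 and 3.46, 3.31 and 2.91 TPM in HT-29. The EGFR inhibitor ERRFI1 was at 417, 395 and 414 TPM in HCT-116, 127, 124 and 128 TPM in DLD-1 and 59.95, 63.98 and 59.99 TPM in HT-29. The factors ETV1, FOSL1 and ETV5 changed by 2.60 ± 0.06, 1.59 ± 0.05 and 1.41 ± 0.04, and IER3, SPRED3 and EGR1 by 2.11 ± 0.05, 2.26 ± 0.12 and 1.56 ± 0.05. DUSP4, DUSP6 and PHLDA1 lay above the mean but were not called, and SPRY2 and SPRED2 below it, with changes of -0.68 ± 0.06 and -0.29 ± 0.04. Receptors and most ligands did not differ in this way: EGFR was at 16.7, 17.5 and 14.4 TPM in HCT-116, 16.4, 17.6 and 16.8 TPM in DLD-1 and 15.96, 15.7 and 17.8 TPM in HT-29, and of 7 ligands only BTC was called, with a change of -1.73 ± 0.12.

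BRAF and PIK3CA, given as mutated, were not set apart in mRNA level. BRAF was at 9.62, 10.7 and 9.83 TPM in HCT-116, 11.7, 11.9 and 12.5 TPM in DLD-1 and 10.8, 10.5 and 11.8 TPM in HT-29. PIK3CA was at 12.6, 12.7 and 13.5 TPM in HCT-116, 9.23, 10.5 and 9.95 TPM in DLD-1 and 10.1, 10.3 and 10.5 TPM in HT-29. The changes against the mean were 0.03 ± 0.04 for BRAF and 0.24 ± 0.05 for PIK3CA, and neither was called.

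In the TGF-β and BMP pathway, the few ligands and receptors called went in both directions. Of 14 mediators and inhibitors tested, 4 were called, all higher, and 10 were not called. TGF-β and BMP ligands bind paired receptors that phosphorylate SMAD proteins, and ID genes are induced by BMP. Of 33 tested, 7 were called higher (21.2%, against 12.4% over all genes) and 3 lower (9.09%, against 7.10%), with a median of 0.50. Among ligands, BMP2 was at 0 TPM in every library of HCT-116, 5.45, 5.55 and 5.98 TPM in DLD-1 and 1.03, 1.09 and 0.893 TPM in HT-29, and TGFB2 changed by -4.93 ± 0.15. BMP7 was at 6.45, 6.06 and 6.47 TPM in HCT-116, 0.0353, 0.0848 and 0 TPM in DLD-1 and 0.0101, 0 and 0 TPM in HT-29. BMP4 was at 327 TPM or more in all 9 libraries and was not called. The receptor TGFBR2 was at 12.9, 13.6 and 12.7 TPM in HCT-116, 32.8, 31.7 and 32.7 TPM in DLD-1 and 29.5, 31.6 and 28.6 TPM in HT-29 (log2 fold change -1.41 ± 0.05 against the mean, -1.41 against DLD-1 and -1.41 against HT-29, largest adjusted p = 3.00e-14), and ACVR2B and ACVRL1 were higher by 2.06 ± 0.05 and 3.57 ± 0.26. ID1 and ID3 were higher, with ID3 changing by 5.09 ± 0.08 and ID1 at 403, 385 and 383 TPM in HCT-116, 159, 159.8 and 173 TPM in DLD-1 and 91.9, 94.7 and 92.5 TPM in HT-29. The BMP antagonists CHRD and NOG were also higher, CHRD at 6.03 to 6.99 TPM against 0.403 TPM or less elsewhere, and NOG at 0.718 to 0.766 TPM against 0.01304 TPM or less. SMAD4 was at 62.8 to 64.5 TPM in HCT-116, as in DLD-1 (60.9 to 64.2), and at 12.7 TPM or less in HT-29.

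Of 13 mismatch repair genes, 2 were called, both lower in HCT-116, and MSH3 was among them. MSH3 takes part in the recognition of small loops in DNA. Unstable microsatellites, given for HCT-116 and DLD-1, are the usual sign of lost mismatch repair. Whether the level of MSH3 or of any other gene on the list bears on them was not tested. MSH3 was at 2.26, 2.12 and 1.76 TPM in HCT-116, 18.9, 18.7 and 19.6 TPM in DLD-1 and 13.7, 14.1 and 12.8 TPM in HT-29 (log2 fold change -3.19 ± 0.07 against the mean, -3.32 against DLD-1 and -3.05 against HT-29, largest adjusted p = 1.02e-17). MSH6, which takes part in the recognition of base mismatches, was at 53.3, 51.5 and 46.6 TPM in HCT-116, 14.7, 13.03 and 12.3 TPM in DLD-1 and 56.3, 52.8 and 55.2 TPM in HT-29, so that DLD-1 was the low line there.

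Few of the genes that handle 5-FU were apart in HCT-116. 5-FU is converted to nucleotides that block thymidylate synthase (TYMS) and enter RNA and DNA, and DPYD degrades it. Of 30 tested, 1 was higher and 1 lower, with a median of -0.17. TYMS was at 298, 287 and 296 TPM in HCT-116, 285, 274 and 280.3 TPM in DLD-1 and 209.9, 216 and 214 TPM in HT-29. TYMP, thymidine phosphorylase, which can activate 5-FU, was at 19.9, 21.4 and 22.1 TPM in HCT-116, 3.19, 4.11 and 4.27 TPM in DLD-1 and 1.84, 1.57 and 1.85 TPM in HT-29 (log2 fold change 3.64 ± 0.07 against the mean, 3.68 against DLD-1 and 3.61 against HT-29, largest adjusted p = 6.38e-17). MBD4, a glycosylase that can remove uracil and 5-FU from DNA, was at 10.03, 11.8 and 8.95 TPM in HCT-116, 34.9, 38.97 and 36.4 TPM in DLD-1 and 49.4, 46.5 and 46.7 TPM in HT-29 (log2 fold change -2.34 ± 0.06 against the mean, -2.04 against DLD-1 and -2.65 against HT-29, largest adjusted p = 1.55e-15). DPYD was at 0.977 to 1.18 TPM in HCT-116 and at a like level in HT-29 (1.46 to 1.57), above DLD-1 (0.103 or less).

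The HOX genes, which give cells their place along the body axis, were lower in clusters A and B and mixed in C and D. Of 36 tested, 15 were called lower and 4 higher, with a median of -1.33. In HOXA 7 of 11 and in HOXB 7 of 9 were lower, and HOXC11 was the other one. HOXB3 was at 4.95, 4.83 and 4.62 TPM in HCT-116, 131, 164 and 147 TPM in DLD-1 and 87.7, 83.3 and 102 TPM in HT-29 (log2 fold change -4.63 ± 0.08 against the mean, -4.93 against DLD-1 and -4.34 against HT-29, largest adjusted p = 7.23e-19). HOXB9 was at 7.93, 7.82 and 8.28 TPM in HCT-116, 79.1, 80.5 and 81.2 TPM in DLD-1 and 125, 129.5 and 121 TPM in HT-29. HOXA13, the most posterior gene of its cluster, was at 4.95, 5.53 and 5.304 TPM in HCT-116, 52.7, 50.1 and 52.7 TPM in DLD-1 and 31.5, 31.4 and 30.96 TPM in HT-29. In these genes each HCT-116 library lay far under the other 6. Within the same clusters HOXA9, HOXA7 and HOXB13 were not called, with HOXA9 at 70.6, 72.6 and 72.7 TPM in HCT-116, 87.2, 89.4 and 86.7 TPM in DLD-1 and 54.9, 55.2 and 49.5 TPM in HT-29. The 4 higher genes were HOXC9, HOXC10, HOXD3 and HOXD8, of which HOXD8 was at 8.81, 7.403 and 8.95 TPM in HCT-116, 0.438, 0.491 and 0.544 TPM in DLD-1 and 0.0428, 0.0508 and 0 TPM in HT-29 (log2 fold change 5.97 ± 0.17 against the mean, 4.11 against DLD-1 and 7.83 against HT-29, largest adjusted p = 5.17e-14). HOXC9 was at 5.17, 7.83 and 5.04 TPM in HCT-116, 0.0991, 0.128 and 0.0342 TPM in DLD-1 and 0.459, 0.962 and 0.962 TPM in HT-29. HOXC13 was at 3.76 to 4.37 TPM in HCT-116 and 2.56 to 2.73 TPM in HT-29 but at or near 0 in DLD-1.

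**Figure D5:**
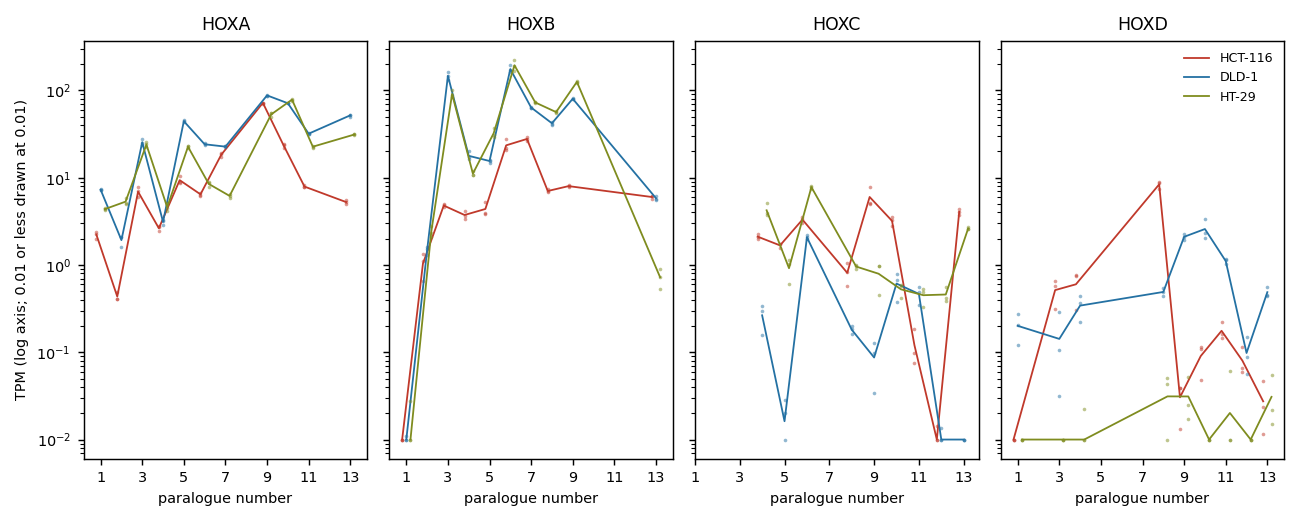
TPM on a log axis against the paralogue number of each HOX gene, in 4 panels for the clusters A to D. Points are libraries, 3 a line, lines join the means, and values of 0.01 or less are drawn at 0.01. HCT-116 lies under both other lines across most of HOXA and HOXB, as at HOXB9 with 7.82 to 8.28 TPM against 79.1 TPM or more, and above both at HOXD8 in the last panel.

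Among the 15 KRAB zinc finger genes (transcriptional repressors) for which the study made primers, 4 were called lower and 1 higher, with a median of -0.84. ZNF841 was at 0.562, 0.396 and 0.357 TPM in HCT-116, 1.71, 1.71 and 1.91 TPM in DLD-1 and 12.7, 13.5 and 17.4 TPM in HT-29 (log2 fold change -5.96 ± 0.17 against the mean, -4.36 against DLD-1 and -7.57 against HT-29, largest adjusted p = 7.18e-13), and ZFP69B, ZNF600 and ZNF468 changed by -2.40 ± 0.19, -1.81 ± 0.07 and -1.33 ± 0.05. ZNF559 was higher, at 9.44, 8.33 and 7.34 TPM in HCT-116, 0.958, 0.546 and 0.703 TPM in DLD-1 and 1.89, 2.09 and 1.74 TPM in HT-29. Genes of the cell cycle, by contrast, were close to the other lines under uracil: of 35 tested 1 was called, TOP2A, at 78.5, 81.5 and 77.1 TPM in HCT-116, 171, 161 and 164 TPM in DLD-1 and 158, 154 and 162 TPM in HT-29, with a list median of -0.09. CDKN2A was at 58.8 to 65.7 TPM in HCT-116, between DLD-1 (0.995 or less) and HT-29 (241 to 263).

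Neighbouring genes were sometimes called together. A run was counted where at least 5 protein-coding genes tested in a row along a chromosome were called in the same direction, and there were 12 such runs. The longest, on chromosome 11 (5253188 to 5505652), held 7 genes from HBG2 to OR52D1, all higher, including the globin genes above. Since some of these overlap and share reads divided by estimate, their calls are not independent of each other. Within it OR51B5 was at 134.9, 129.1 and 138.1 TPM in HCT-116 and at 0.107 TPM or less in the other lines. A run of 6 lower genes on chromosome 4 (73869393 to 74303099) held the chemokines CXCL1, PF4, CXCL5, CXCL3 and CXCL2, which attract neutrophils or are stored in platelets. CXCL5 was at 0, 0 and 0.0155 TPM in HCT-116, 2147, 1957 and 1979 TPM in DLD-1 and 0.190, 0.0284 and 0.0594 TPM in HT-29. CXCL3 was at 0.7103 to 0.783 TPM in HCT-116, 43.1 to 49.4 TPM in DLD-1 and 3.15 to 3.52 TPM in HT-29. CXCL1 changed by -3.83 against DLD-1 and -2.28 against HT-29, CXCL2 by -4.77 and -1.49, and PF4, at 0 TPM in HCT-116, was at 9.02 to 11.5 TPM in DLD-1 and 0.475 to 0.881 TPM in HT-29. The 5 chemokines thus lay farther from DLD-1 than from HT-29, whereas the sixth gene, MTHFD2L, changed by -1.08 and -1.49.

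The other runs included 6 higher genes on chromosome 12 from PTMS to GNB3, with the collagen hydroxylase gene P3H3 at 18.2 to 20.99 TPM in HCT-116 and at 1.17 TPM or less elsewhere. On the same chromosome a run of 5 from ZNF385A to PPP1R1A held GTSF1, a gene of germline transposon silencing, at 259.5 to 286 TPM in HCT-116 and at 0.163 TPM or less elsewhere. HOXB2 to HOXB6 formed a run of 5 lower genes on chromosome 17. By chromosome, the median change against the mean was highest on 22 (0.38), 17 (0.31) and 8 (0.26) and lowest on 13 (-0.32) and 11 (-0.23), beside 0.03 over all genes placed. For 3 of these the distance came mostly from HT-29: the medians against DLD-1 and HT-29 were 0.08 and 0.60 on chromosome 22, -0.17 and -0.57 on 13, and -0.09 and -0.35 on 11. They were 0.21 and 0.34 on 17 and 0.30 and 0.26 on 8.

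The distance of HCT-116 from the other lines was mostly there again in libraries the above did not use. In the 9 libraries of the same lines given 5-FU at 10 µM for 24 h, fitted on their own, 3149 genes (13.2%) were called higher and 2311 (9.67%) lower than in both other lines, 22.8% in all. Of the 2661 genes higher under uracil that could be tested there, 2166 (81.4%) were called higher again. Of the 1557 lower, 1203 (77.3%) were called lower again. MAGEB2 was at 155 ± 3.07 TPM (SD, n = 3) in HCT-116 under 5-FU, CDKN1A at 664 ± 10.5, SPARC at 3192 ± 59.6 and DKK1 at 583 ± 20.2. These are levels in HCT-116 alone and do not by themselves give a distance. The 14 leading higher genes, MAGEB2 among them, had means of at most 0.0756 TPM in sensitive DLD-1 and 0.0865 TPM in sensitive HT-29 under 5-FU.

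In some genes the distance itself changed with 5-FU. The difference of HCT-116 from the mean of the others under 5-FU, less the same difference under uracil, was called in 607 genes higher (2.48%) and 1413 lower (5.78%), or 8.26% in all, of 24461 tested over 18 libraries. The mitosis genes stood out: 14 of 14 were called lower in this comparison, and 11 of 21 genes of the G1/S transition. CDK1, the kinase that starts mitosis, averaged 161 ± 0.476 TPM under uracil and 55.99 ± 1.61 TPM under 5-FU in HCT-116 (± SD, n = 3), against 134 ± 5.88 and 154 ± 2.04 in DLD-1 and 156 ± 7.18 and 278 ± 6.84 in HT-29. The change of the difference was -1.90 ± 0.07, adjusted p = 3.27e-17. In the same order, TOP2A averaged 79.03 ± 2.25 and 25.4 ± 1.09 TPM in HCT-116, 166 ± 5.195 and 198 ± 3.01 in DLD-1 and 158 ± 4.38 and 185 ± 5.71 in HT-29 (-1.75 ± 0.05, adjusted p = 5.04e-19). In both, HCT-116 fell while the other lines did not.

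Of the 39 DNA damage response genes, 8 were called higher in this comparison and 1, GTSE1, lower. GTSE1, a gene expressed in the G2 phase of the cell cycle, averaged 30.2 ± 1.31 TPM under uracil and 9.75 ± 0.347 TPM under 5-FU in HCT-116, 42.95 ± 1.85 and 62.1 ± 0.523 in DLD-1, and 28.3 ± 1.195 and 34.97 ± 1.05 in HT-29, so that it moved below both lines. BTG2, an antiproliferative gene, averaged 20.5 ± 0.965 TPM under uracil and 40.8 ± 0.304 TPM under 5-FU in HCT-116, 4.597 ± 0.232 and 3.198 ± 0.292 in DLD-1, and 10.5 ± 0.629 and 2.91 ± 0.223 in HT-29 (2.38 ± 0.08, adjusted p = 4.63e-17). MDM2 was higher in the same way, with a change of the difference of 1.26 ± 0.05, adjusted p = 6.04e-17. Under 5-FU 16 of the 39 were called higher than in both lines. CDKN1A, already far apart under uracil, was not called here (-0.19 ± 0.07, adjusted p = 0.0233).

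Of the 28 MAPK genes, 7 were called lower in this comparison and 1 higher. EGR1, an immediate early gene, averaged 69.2 ± 3.66 TPM under uracil and 15.5 ± 0.578 TPM under 5-FU in HCT-116, 33.2 ± 0.616 and 39.03 ± 1.41 in DLD-1, and 15.8 ± 0.211 and 17.2 ± 0.447 in HT-29 (-2.19 ± 0.06, adjusted p = 3.54e-19). DUSP5 stayed at a like level in HCT-116, 73.5 ± 6.68 and 67.03 ± 1.09 TPM, while HT-29 averaged 3.23 ± 0.282 TPM without 5-FU and 31.03 ± 2.33 TPM with it. MYC moved further above the other lines (1.51 ± 0.06, adjusted p = 1.64e-16). TYMS, the thymidylate synthase that 5-FU inhibits, averaged 294 ± 5.88 TPM under uracil in HCT-116, 279.8 ± 5.85 in DLD-1 and 213 ± 2.91 in HT-29 and was not called there. Under 5-FU it was at 125 ± 2.299 TPM in HCT-116 against 285 ± 7.38 in DLD-1 and 368 ± 9.904 in HT-29, below both lines (-1.57 ± 0.05, adjusted p = 2.49e-17).

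The 14 leading higher genes were also read in every condition of the series. The sensitive groups under uracil had served to choose the leading genes in both directions, so the counts in those groups follow from the choice. The leading higher genes had a mean of at least 1 TPM in sensitive HCT-116 under all 3 treatments, 14 of 14. None had it in any condition of sensitive DLD-1, sensitive HT-29 or resistant DLD-1. In resistant HCT-116 13 of 14 were at 1 TPM or more in each treatment. The libraries labelled resistant HT-29 also had 13 of 14 at 1 TPM or more, which goes against that label, and no result above uses them. The 14 leading lower genes were at 1 TPM or more in sensitive HT-29 and in both forms of DLD-1, 14 of 14, and none of them in either form of HCT-116 or in the libraries labelled resistant HT-29.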

How the data were processed

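RNA-seq of polyadenylated RNA was measured in 54 libraries, 18 groups of 3 biological replicates, of which the 9 uracil libraries of the sensitive lines entered the first fit, the 9 matching 5-FU libraries another, and all 18 together the last. The authors trimmed the reads with Trimmomatic, pseudoaligned them with kallisto to the Ensembl transcripts of GRCh38.p13 and summed transcripts to genes. The deposited table holds estimated counts, which the authors did not normalise, and TPM, which the authors' kallisto runs scale by effective length and library total. kallisto divides reads among near-identical transcripts, so values of close copies are estimates.

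Here the estimated counts were rounded, genes were filtered with edgeR's filterByExpr, libraries were scaled by TMM, and edgeR's quasi-likelihood test was run (edgeR 4.0.16, limma 3.58.1, R 4.3.3) with Benjamini-Hochberg adjustment over all genes tested. A call needed a log2 change of 1 or more and an adjusted p no higher than 0.01. No libraries were merged, since replicates differed by more than sampling noise (chi-square per degree of freedom 3.26 to 15.5). The fit was also run on simulated data with 200 changed genes and otherwise equal means in the lines, a simpler setting than these data. Its outcome is not reported here, and no result rests on it.

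Members, lists and tests were chosen with earlier results of these data known. Named genes were the 14 leading protein-coding genes in each direction by the change against the nearer line at 10 TPM or more, up to 6 called members of each list and direction with the members that define its role, genes given as mutated, up to 3 genes a run and the 8 genes with the largest change of the line difference under 5-FU at 5 TPM or more. Some genes that this rule names are not reported here. Genes of runs and markers given beside these were chosen after their values were seen. Symbols were matched to GENCODE 44 coordinates for 36796 of 59368 names, with 668 more through RefSeq synonyms. Counts behind a gene set its precision, and floors and lower bounds cover counting error only. Alternatives were library size alone, DESeq2 1.42.0, no filter, other thresholds, a replicate block, all 54 libraries in 1 fit, thinning of the deepest library to 25.9% and leaving out each library.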

Additional observations from a re-analysis of the deposited data

Results flagged for a closer look

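The difference of HCT-116 from the mean of the other lines changed with 5-FU in 607 genes towards a higher and in 1413 towards a lower relative level in HCT-116, by a test of the difference itself (edgeR's quasi-likelihood test, adjusted p at most 0.01 and a log2 change of at least 1). Among the lists, 14 of 14 mitosis genes went towards the lower and 8 DNA damage response genes towards the higher side, among them BTG2, MDM2, BBC3, RPS27L, TRIAP1, SESN1 and ZMAT3.

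The 8 genes with the largest such changes mostly had a group near 0, where the fitted change depends on the prior count and is no bound. GAST, the gastrin gene, changed by -5.60 ± 1.08, adjusted p = 0.000214, with 0 ± 0 TPM in HT-29 under uracil and 5.57 ± 1.201 TPM under 5-FU (mean ± SD, n = 3). For C15orf48 the change was -5.55 ± 1.15, adjusted p = 0.00036, and for the receptor kinase gene KIT -5.35 ± 1.42, adjusted p = 0.00719, with KIT at 27.01 ± 0.307 and 21.5 ± 0.149 TPM in DLD-1 and 0.01303 ± 0.00437 and 0 TPM in HCT-116. LHX2, a homeobox gene, changed by -4.83 ± 0.775 (adjusted p = 1.83e-05) and was at 11.7 ± 0.798 and 4.502 ± 0.593 TPM in HCT-116. SHISA8 changed by -4.42 ± 1.02, adjusted p = 0.00132 at 8.71 ± 0.493 and 6.56 ± 0.416 TPM in HCT-116. MGAM2 changed by 3.96 ± 0.38, adjusted p = 5.32e-09, with 6.03 ± 1.101 and 1.09 ± 0.0559 TPM in HT-29. SCARA3, a scavenger receptor gene, changed by -3.47 ± 0.11, adjusted p = 9.36e-18, at 13.5 ± 0.449 and 6.11 ± 0.124 TPM in HCT-116 and 14.9 ± 0.241 and 21.4 ± 1.16 TPM in DLD-1. SOCS3, an inhibitor of cytokine signalling, changed by -3.34 ± 0.19, adjusted p = 4.50e-13, at 10.3 ± 0.467 and 6.63 ± 0.337 TPM in HCT-116.

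The libraries labelled resistant HT-29 entered only the alternative that fits all 54 libraries at once. In them 13 of the 14 leading higher genes of HCT-116 had a mean of at least 1 TPM. None of the 14 did in sensitive HT-29, whose uracil libraries had served to choose the genes.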

How the results depend on the processing

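The counts of called genes over all genes tested stayed within 1.5 times of the values given under library size alone, DESeq2, no filter on low counts, a replicate block, all 54 libraries in 1 fit, thinning of the deepest library and leaving out each library, and moved beyond that only with the thresholds. Outside the thresholds, 3 list counts moved from 1: the drug efflux list called higher was 2 with library size alone and with no filter, and of the immune markers 2 were called lower with no filter, with thinning or without DLD-1 replicate 2 and 0 called higher without HCT-116 replicate 1 or HT-29 replicate 3. At a log2 threshold of 2, the counts higher and lower were 1652 and 764 apart from both lines, 2635 and 1410 against the mean, 2313 and 1528 against DLD-1, 3163 and 1799 against HT-29, 2194 and 1564 for DLD-1 against HT-29, 1723 and 1049 apart from both under 5-FU, and 83 and 266 for the change of the difference. With the adjusted p alone they were, in the same order, 4882 and 3991, 7830 and 6969, 7177 and 6832, 7909 and 7346, 7429 and 6799, 5994 and 5305, and 3947 and 4667. Leaving out each library in turn gave 2662 to 2838 and 1467 to 1545 apart from both, 4328 to 4592 and 2752 to 2929 against the mean, 3866 to 4100 and 2868 to 3199 against DLD-1, 4920 to 5255 and 3757 to 3911 against HT-29, 3826 to 4155 and 3170 to 3341 for DLD-1 against HT-29, 3154 to 3269 and 2224 to 2361 under 5-FU, and 544 to 662 and 1337 to 1441 for the change of the difference. Higher genes were 63.6% of those apart from both, 65.8% with library size alone and 64.5% with DESeq2. Among the named genes, in the change against the mean, BRAF turned sign near 0, at -0.02479 with all 54 libraries and at -0.001994 to 0.05562 when each library was left out, and was called in none of these. The cause was not tested.

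The replicate numbers did not pair the libraries: deviations of same-numbered libraries correlated at -0.214 to 0.256, with 4 of 9 pairs over 0.1. Only 3 of 9 libraries were closest to their own number. Libraries of different numbers correlated at -0.228 to 0.341. The highest pair was DLD-1 replicate 2 with HT-29 replicate 3, and HCT-116 replicate 2 with HT-29 replicate 3 gave 0.298. A block by number cannot take up deviations shared in that way, and their source was not tested. With the replicate block 2679 genes were higher and 1504 lower apart from both, and 4168 were called with and without it. 3 libraries a line and 1 line a genotype limit every comparison to these cultures, and genes under the floor of 3 counts have no measured fold.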

Other observations

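Genes of drug efflux, glutathione and aldehyde metabolism were lower in HCT-116 in 8 of 33 tested and higher in 1 (2 with library size alone or with no filter on low counts), with a median change of -0.72. ALDH3A1, an aldehyde dehydrogenase, was at 0.153, 0.107 and 0.0176 TPM in HCT-116, 51.8, 51.1 and 49.4 TPM in DLD-1 and 31.5, 34.7 and 29.5 TPM in HT-29, and the glutathione peroxidase GPX2 at 0.432, 0.531 and 0.138 TPM in HCT-116, 7.24, 1.38 and 1.59 TPM in DLD-1 and 1083, 1117 and 1019 TPM in HT-29. The change of GPX2 against DLD-1 was -2.83 with DLD-1 replicate 1 and -1.96 without it. UGT1A10, UGT1A6 and UGT1A1 attach glucuronic acid to drugs and bilirubin and share exons. Their fitted changes were -13.76 ± 0.30, -11.23 ± 0.20 and -6.53 ± 0.15. Of the 5 UGT genes tested, 4 were at the floor in HCT-116, with 3 counts or fewer in every library. For a gene at the floor, the fitted change and its ± depend on the count added before the logarithm and are not a measured fold. GSTM3, GPX3 and AKR1C3 were the other members that were lower. ALDH1A3, which makes retinoic acid, was at 259.9, 266 and 261 TPM in HCT-116, 6.44, 6.697 and 7.95 TPM in DLD-1 and 14.8, 16.8 and 14.3 TPM in HT-29 and was the member that was higher (log2 fold change 4.64 ± 0.06 against the mean, 5.35 against DLD-1 and 3.93 against HT-29, largest adjusted p = 5.17e-19).

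Of 45 antigen presentation and interferon genes, 3 were higher and 7 lower, with a median of -0.43. The class II genes HLA-DRA and HLA-DRB1 were higher, with HLA-DRA at 4.73, 5.26 and 5.29 TPM in HCT-116, 0 TPM in every library of DLD-1 and 0, 0 and 0.0997 TPM in HT-29, although CIITA, the regulator of class II genes, was at 1.004 TPM or less in all 9 libraries. HLA genes vary between people, so reads may be assigned unevenly between lines. HLA-B changed by 2.81 ± 0.05. OAS1, an antiviral sensor, was at 0.113, 0.274 and 0.203 TPM in HCT-116, 20.96, 19.98 and 22.1 TPM in DLD-1 and 24.6, 23.8 and 29.9 TPM in HT-29, and CGAS, which detects DNA in the cytoplasm, at 0.0402, 0 and 0.0523 TPM in HCT-116, 0.865, 0.764 and 0.578 TPM in DLD-1 and 11.4, 11.7 and 11.3 TPM in HT-29 (log2 fold change -6.57 ± 0.26 against the mean, -4.57 against DLD-1 and -8.57 against HT-29, largest adjusted p = 6.71e-10). MX1, OAS2, IRF7, ERAP2 and PSMB8 were also lower.

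Keratin and desmosome genes were mixed, 4 higher and 5 lower of 21, with a median of -0.06. The keratins of simple epithelia KRT8 and KRT18 changed by -1.63 ± 0.06 and -2.13 ± 0.06, while KRT19, at 792 to 879 TPM in HCT-116, was not called. KRT80 and the desmosomal plaque genes PKP1 and PKP2 changed by -3.87 ± 0.07, -3.27 ± 0.41 and -1.56 ± 0.05. KRT23 and DSC3, a desmosomal cadherin, were higher, with DSC3 at 3.61, 3.101 and 2.36 TPM in HCT-116, 0, 0.00547 and 0 TPM in DLD-1 and 0.0591, 0.116 and 0.105 TPM in HT-29, as were KRT15 and KRT81.

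Among the 10 immune markers, summed levels were 9.24 to 10.4 TPM in HCT-116, 4.08 to 11.3 in DLD-1 and 1430.0 to 1570.0 in HT-29, where LYZ made up nearly all of it.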
